A study of Mus musculus with 6 samples.

Results

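The genes described here encode the subunits of the NADPH oxidases: Cybb, Cyba, Ncf1, Ncf4 and Rac2, which build the oxidase of phagocytes, and the separate catalytic subunits Nox1 and Nox4. They were taken by gene symbol from the probe sets annotated with a single symbol, and each of the 7 genes had 1 such probe set, of 22180 genes on the array. Of the 7, 6 passed the filter on low signal and were among the 15526 tested genes. Nox1 did not pass and is described without a test. The RNA came from stellate cells of the mouse liver. These pericytes store vitamin A and turn into collagen-producing myofibroblasts after injury or in culture.

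There were 6 arrays, 1 for each combination of 2 ages and 3 states, and the cells of 5 mice were pooled for each sample. Young mice were 8 to 11 weeks old and old mice 6 to 9 months. Quiescent cells were taken after 12 h of plating. Activated cells had been in culture for more than 20 days and received either the vehicle DMSO (called vehicle) or C-82 at 10 µM (called PRI-724). PRI-724 is converted to C-82, which keeps beta-catenin from binding the coactivator CBP. The labels used here do not give the length of exposure. The labels name no genetic change and no injury in any group. The study set the 3 states against each other and the 2 ages against each other within a state.

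An NADPH oxidase moves electrons from NADPH across a membrane to oxygen and so makes superoxide or hydrogen peroxide. In phagocytes the membrane pair gp91phox (Cybb, also called NOX2) and p22phox (Cyba) stays silent until cytosolic subunits and a Rac GTPase join it, whereas NOX4 needs p22phox but no cytosolic organizer and is active without a trigger. Kupffer cells, the macrophages of the liver, carry the phagocyte form, and NOX1, NOX2 and NOX4 have all been studied in stellate cells and liver fibrosis.

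Values are log2 signals, so a difference of 1 is a 2-fold change. A gene is said to have risen or fallen where limma's moderated test gave a Benjamini-Hochberg adjusted p under 0.05 over all tested genes, and ± gives the standard error (SE). With 1 array in each group, the error combines a gene's disagreement between the ages over the states with the variance of all tested genes. The former has 2 degrees of freedom and the latter 7.76, so most of the error is shared between genes. A p-value measures a difference only against that error between pooled samples. The vehicle arrays enter both activation (vehicle minus quiescent) and PRI-724 minus vehicle, and PRI-724 minus quiescent shares arrays with both, so these comparisons are not independent.

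The array of PRI-724-treated cells from young mice stood apart from the others. The interquartile range of its log2 signals over the tested genes was 1.71, against 2.11 to 2.43 on the other 5 arrays. Markers of stellate cells had a mean log2 signal of 7.32 and 7.37 on the quiescent arrays, 8.42 and 8.49 on the vehicle arrays and 7.62 and 8.20 on the PRI-724 arrays. Markers of macrophages and of sinusoidal endothelium were present too, with means of 8.08 and 8.89 and of 9.67 and 8.50 on the quiescent arrays.

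The 250 bases upstream of the annotated start are shown for Cybb and Cyba, the membrane pair of the phagocyte oxidase, and for Nox4, the one tested catalytic subunit outside it. The sequences are from RefSeq (GRCm38.p6), run 5′ to 3′ on the strand of the gene and end at the base before the start. Capitals mark CCAAT and AGGAA on either strand. The windows are chrX:9469325-9469574 on the minus strand for Cybb, chr8:122432941-122433190 on the minus strand for Cyba and chr7:87246399-87246648 on the plus strand for Nox4.
Cybb: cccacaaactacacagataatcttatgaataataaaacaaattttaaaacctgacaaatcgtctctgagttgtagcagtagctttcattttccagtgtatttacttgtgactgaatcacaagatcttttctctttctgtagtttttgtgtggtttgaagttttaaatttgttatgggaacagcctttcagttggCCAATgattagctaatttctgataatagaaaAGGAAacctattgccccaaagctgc
Cyba: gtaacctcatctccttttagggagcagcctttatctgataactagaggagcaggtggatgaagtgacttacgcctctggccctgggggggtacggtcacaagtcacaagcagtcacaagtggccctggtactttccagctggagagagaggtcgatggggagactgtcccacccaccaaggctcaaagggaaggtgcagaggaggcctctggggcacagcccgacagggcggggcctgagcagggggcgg
Nox4: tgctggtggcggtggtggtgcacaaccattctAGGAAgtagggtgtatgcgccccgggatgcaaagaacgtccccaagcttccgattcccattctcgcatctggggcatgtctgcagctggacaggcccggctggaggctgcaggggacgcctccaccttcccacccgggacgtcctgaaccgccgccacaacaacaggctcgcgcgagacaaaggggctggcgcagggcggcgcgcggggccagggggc

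The window of Cybb was poor in G and C (34.0%), whereas those of Cyba (60.0%) and Nox4 (67.2%) lay above the median of 52.4% over 32851 mouse promoter windows of the same length. The Cybb window held CCAAT 56 to 52 bases before the start and AGGAA, the core letters read by many ETS factors, 25 to 21 bases before it. It also held TGANTCA, an AP-1 type motif, 139 to 133 bases before the start. The Nox4 window held AGGAA once, 218 to 214 bases before the start, and the Cyba window held neither CCAAT nor AGGAA. On either strand, 33.8% of all windows held CCAAT, 60.3% AGGAA, 6.75% TGANTCA and 12.4% TATAAA, of which none of the 3 windows held the last. The longer motif GAGGAA, which contains AGGAA, and the ETS-IRF composite motif were searched as well and were found in 23.3% and 2.3% of all windows and in none of these 3. CCAAT and AGGAA were added to the search after the sequences had been seen. The RefSeq table held 5 of the 7 genes, and Ncf4 and Rac2 were not in it. The windows of Nox1 and Ncf1 were in it but are not shown. That of Nox1 held AGGAA 119 to 115 bases before the start and again 22 to 18 bases before it, the latter within GAGGAA. The Ncf1 window held neither CCAAT nor AGGAA.

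No NADPH oxidase gene passed the test when stellate cells were activated in culture, and most members of the phagocyte oxidase were lower after PRI-724. Cybb was 14.7-fold lower than with vehicle, Rac2 4.3-fold, Cyba 2.86-fold and Ncf4 2.43-fold, and all 4 passed the test. Ncf1, Nox1 and Nox4 had no call in any comparison. Of the 6 tested members, 4 fell in PRI-724 minus vehicle, where 1.93% of all tested genes fell. In PRI-724 minus quiescent the same count was 4 of 6, where 2.43% of all tested genes fell. In these pooled samples fewer cells of a type and less RNA per cell cannot be told apart.

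These calls need the array of young PRI-724-treated cells. Without it, the difference of Cybb from vehicle was −3.66 ± 0.29, with a limma adjusted p of 0.226, and none of the members passed. None of the 15526 genes passed in that fit, while 997 genes and 5 of the members had an unadjusted p under 0.05. In the old pair alone, the differences of Cybb, Rac2, Cyba and Ncf4 were −3.52, −1.87, −1.18 and −1.16. Cyba and Ncf4 also lost their call against vehicle after cyclic loess, after quantile normalization and without age in the model. Against quiescent cells, 0 members were called without the young PRI-724 array, and 1, Cybb, without the old one.

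**Figure D1:**
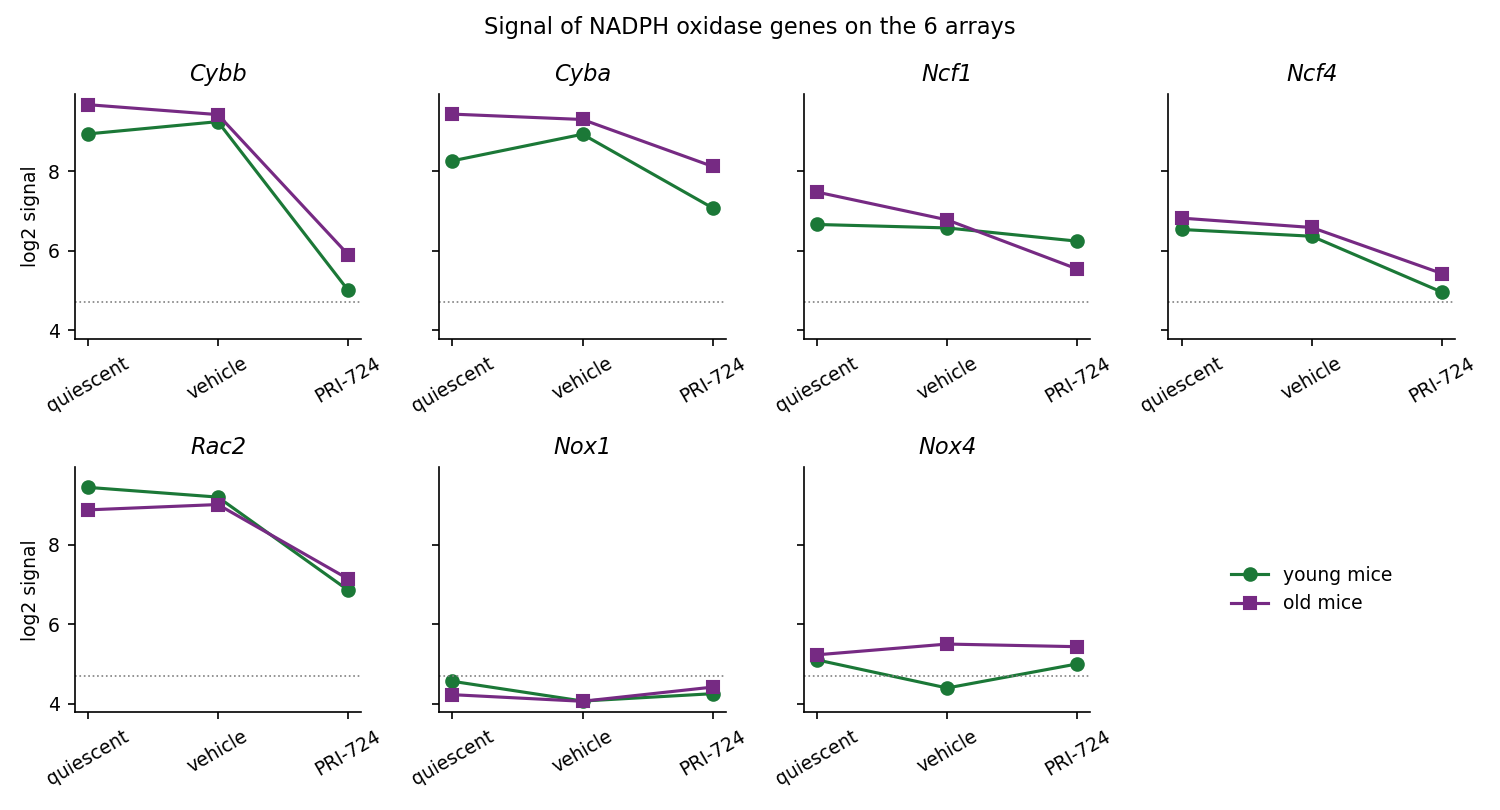
Log2 signal of each of the 7 genes on the 6 arrays, by state on the x axis, with 1 line per age and 1 point per array, and a dotted line at the filter on mean signal. Cybb, Cyba, Ncf4 and Rac2 are lowest on the PRI-724 arrays of both ages. Nox1 and Nox4 vary by 0.50 and 1.10 log2 units over all arrays. Nox1 lies below the dotted line on all arrays and Nox4 on the young vehicle array.

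Cybb encodes gp91phox, the catalytic subunit that carries the electrons. Its log2 signal was 8.94 (young) and 9.68 (old) in quiescent cells, 9.25 and 9.43 with vehicle, and 5.01 and 5.91 with PRI-724. The PRI-724 arrays were both at least 3 log2 units below every other array, and the quiescent and vehicle arrays overlapped. PRI-724 minus vehicle was −4.24 (young pair) and −3.52 (old pair), a mean difference of −3.88 ± 0.29 (limma adjusted p = 0.000764). Against quiescent cells the mean difference was −3.85 ± 0.29 (limma adjusted p = 0.000615). Activation itself gave 0.03 ± 0.29, with a 95% interval from −0.63 to 0.68, and the pairs went opposite ways (0.31 young, −0.25 old).

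Cyba encodes p22phox, the partner that stabilises gp91phox and also serves NOX1 and NOX4. It had log2 signals of 8.26 and 9.44 on the young and old quiescent arrays, 8.93 and 9.30 with vehicle, and 7.08 and 8.12 with PRI-724. Both PRI-724 arrays lay below all the others, but the old PRI-724 array (8.12) came close to the young quiescent one (8.26). PRI-724 minus vehicle was −1.85 (young) and −1.18 (old), a mean of −1.52 ± 0.29 (limma adjusted p = 0.0314). Against quiescent cells it was −1.25 ± 0.29 (limma adjusted p = 0.0479), a call that was lost in 7 of 14 alternatives, among them no filter, no age in the model, quantile normalization and leaving out either quiescent array. Activation gave 0.27 ± 0.29 with an adjusted p of 0.642 by limma.

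Ncf4 encodes p40phox, a cytosolic subunit that binds a phosphoinositide on phagosome membranes. Its log2 signal was 6.54 and 6.82 on the young and old quiescent arrays, 6.37 and 6.59 with vehicle, and 4.96 and 5.43 with PRI-724. No PRI-724 array overlapped the others, and PRI-724 minus vehicle was −1.40 (young) and −1.16 (old). The mean difference from vehicle was −1.28 ± 0.25 (limma adjusted p = 0.0332) and that from quiescent cells −1.48 ± 0.25 (limma adjusted p = 0.0114).

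Ncf1 encodes p47phox, the organizer that brings the cytosolic subunits to the membrane. It had log2 signals of 6.66 and 7.48 on the young and old quiescent arrays, 6.58 and 6.78 with vehicle, and 6.24 and 5.54 with PRI-724. The PRI-724 arrays were again the lowest, but they differed from their vehicle arrays unequally, by −0.33 (young) and −1.24 (old). The mean difference from vehicle, −0.78 ± 0.35, did not pass the test (limma adjusted p = 0.329), nor did that from quiescent cells, −1.18 ± 0.35 (limma adjusted p = 0.113). The latter passed when either vehicle array or the young quiescent array was left out.

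Rac2 encodes the Rac GTPase of blood cells that switches the assembled oxidase on. Its log2 signal was 9.44 and 8.88 on the young and old quiescent arrays, 9.20 and 9.01 with vehicle, and 6.86 and 7.14 with PRI-724. The PRI-724 arrays did not overlap the other 4. The mean difference from vehicle was −2.10 ± 0.29 (limma adjusted p = 0.00678), with −2.34 (young) and −1.87 (old), and that from quiescent cells was −2.16 ± 0.29 (limma adjusted p = 0.00356). Rac1, the widely expressed relative that can serve the other oxidases, differed by −0.40 and did not pass (limma adjusted p = 0.401).

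Nox1 encodes a catalytic subunit best known from colon epithelium and vascular smooth muscle. Its log2 signal was 4.57 and 4.23 on the young and old quiescent arrays, 4.07 and 4.07 with vehicle, and 4.26 and 4.42 with PRI-724. Its mean of 4.27 lay below the filter of 4.70, and on all 6 arrays it was under that value. Both vehicle arrays lay below the other 4, and the quiescent and PRI-724 arrays overlapped. At so low a signal a fall could not be seen. PRI-724 minus vehicle was 0.19 (young) and 0.36 (old). With no filter on signal, the mean was 0.27 ± 0.26 (limma adjusted p = 0.679).

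Nox4 encodes a catalytic subunit that mostly releases hydrogen peroxide and is known as a target of TGF-beta in myofibroblasts. Its log2 signal was 5.11 and 5.23 on the young and old quiescent arrays, 4.40 and 5.51 with vehicle, and 5.01 and 5.44 with PRI-724. The lowest and the highest of these are the 2 vehicle arrays, so the states overlapped fully. The young vehicle array lay below the filter, so a fall in the young pair could hardly be seen. PRI-724 minus vehicle was 0.61 (young) and −0.07 (old), a mean of 0.27 ± 0.29 with a 95% interval from −0.37 to 0.91 (limma adjusted p = 0.677). Activation gave −0.71 and 0.27 (mean −0.22, limma adjusted p = 0.704).

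The phagocyte oxidase and the NOX1 and NOX4 genes were compared by their differences, since levels of different probe sets cannot be set against each other. The median difference of the 5 phagocyte members from vehicle was −1.85 in young and −1.24 in old cells. For the mean of the pairs it was −1.52, against −0.05 over all tested genes. The phagocyte median minus the Nox1 difference was −2.04 (young) and −1.59 (old), a mean of −1.82 (SD 0.32 over 2 pairs). Since Nox1 was below the filter on every array, this gap carries little beyond the phagocyte members' own difference. Minus the Nox4 difference it was −2.46 and −1.17, a mean of −1.81 (SD 0.91 over 2 pairs). The gap to Nox4 had the same sign at both ages. Nox4 was low as well, at 4.40 on the young vehicle array, which is below the filter. Its highest signal on any array was 5.51, on the old vehicle array. A fall of Nox4 could hardly be seen in the young pair and had little room in the old pair. The gap to Nox4 therefore also mostly restates the phagocyte members' own difference. Against quiescent cells these gaps were −1.26 and −1.92 to Nox1, and −1.47 and −1.94 to Nox4. No test was made of these gaps, because the members were chosen with results known. In activation the phagocyte median minus the Nox4 difference was 0.62 (young) and −0.51 (old), so the sign turned with age.

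**Figure D2:**
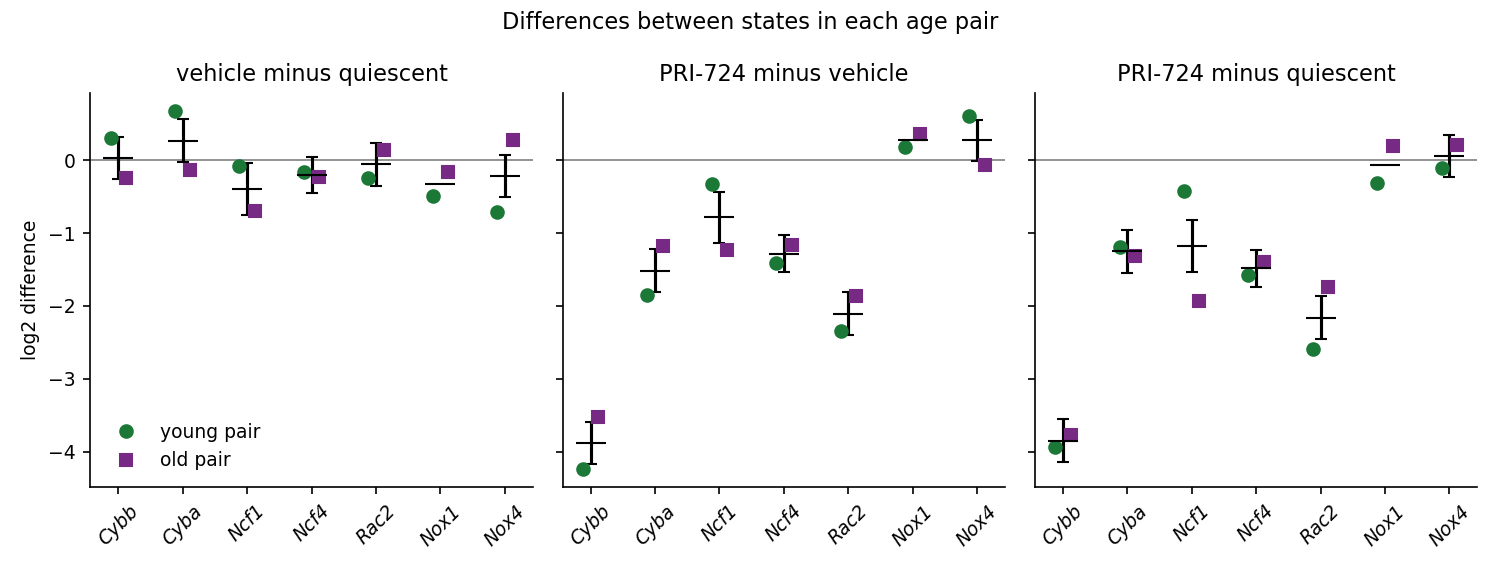
Log2 differences of the 7 genes for activation, PRI-724 minus vehicle and PRI-724 minus quiescent, with 1 point for the young pair and 1 for the old pair, a horizontal bar at their mean and, for tested genes, a vertical bar of ± 1 SE. In PRI-724 minus vehicle both points of Cybb, Rac2, Cyba, Ncf4 and Ncf1 lie below 0, and those of Nox4 lie on either side of it.

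Activation called none of the 6 tested members, while 5.87% of all tested genes passed in either direction (limma). At an unadjusted p under 0.05 the members' count was also 0, against 3484 of 15526 genes. The mean differences ran from −0.39 for Ncf1 to 0.27 for Cyba. On the same arrays, 5 of 9 tested markers of activated stellate cells rose, with a median difference of 2.58 over the list.

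Age gave no call among the members either. Old minus young was 1.17, 0.37 and 1.04 for Cyba in quiescent, vehicle and PRI-724 cells, a mean of 0.86 ± 0.24 (limma adjusted p = 0.208). For Cybb it was 0.74, 0.18 and 0.90 (mean 0.60 ± 0.24, limma adjusted p = 0.42), and for Nox4 0.13, 1.10 and 0.43 (mean 0.55 ± 0.23, limma adjusted p = 0.447). The old array was higher in all 3 states for these genes and for Ncf4, whose differences were 0.29, 0.22 and 0.47. Rac2 and Ncf1 had both signs, with −0.57, −0.19 and 0.28 and with 0.82, 0.20 and −0.70. Cyba, Cybb and Nox4 had an unadjusted p under 0.05 by limma, as did 1615 of all 15526 tested genes, and 0.515% of all tested genes passed the adjusted test in either direction. Hepatocyte markers differed with age on the same arrays: 5 of 10 rose in old mice, with a list median of 2.13, and their part in the members' differences was not tested.

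Some of the genes that act around the phagocyte oxidase fell with PRI-724 too. Of 10 tested receptors that trigger the oxidative burst, 5 fell against vehicle, where 1.93% of all tested genes fell. The median over the list was −1.71. Clec7a (dectin-1, the receptor for fungal beta-glucan) differed by −4.09 and Itgb2 (the beta chain of the leukocyte integrins) by −3.24. Fcgr4 (a receptor for IgG) differed by −2.85, Itgam (the alpha chain of Mac-1) by −2.05 and C5ar1 (the receptor for complement C5a) by −1.77. Most of these receptors are carried by macrophages as well as other myeloid cells.

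Among 15 tested regulators of oxidase assembly, 4 fell, against 1.93% of all tested genes, with a list median of −0.91. These were Prkcb (a protein kinase C that phosphorylates p47phox) at −2.38, Dock2 (an exchange factor for Rac) at −1.42, Vav3 (another exchange factor) at −1.38 and Pik3cg (a lipid kinase of leukocytes) at −1.30. Of 7 tested transcription factors of phagocyte oxidase genes, Irf8 fell by 1.51 (limma adjusted p = 0.0471). Spi1, which encodes PU.1, an ETS factor of myeloid cells, differed by −1.20 and did not pass (limma adjusted p = 0.0735).

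The genes of the oxidases outside phagocytes and of peroxide handling were counted in the same way. In PRI-724 minus vehicle, limma's adjusted test called none of 8 shared partners. It also called none of 3 tested catalytic subunits or partners of other NOX and DUOX enzymes. None of 18 genes that handle superoxide and peroxide and 9 other enzymes that make oxidants passed either. Over all tested genes 2.2% passed in either direction, so lists of this size would hold few calls at that share. At an unadjusted p under 0.05 by limma the counts of these lists, in that order, were 0, 0, 5 and 3. Over all 15526 tested genes the count was 2404. The genes of the other NOX and DUOX enzymes were low on the vehicle arrays. The highest signal in their list was 4.66 on the young vehicle array, which is below the filter, and 5.51 on the old one. A fall of these genes could therefore hardly be seen in the young pair and had little room in the old pair. In activation, 3 of the 18 handling genes rose, where 4.61% of all tested genes rose. These were Gpx8 by 2.30, Gpx7 by 1.65 and Prdx2 by 1.38, which encode peroxidases. Of the 9 other enzymes 1 rose in activation, Maoa, a mitochondrial amine oxidase that releases hydrogen peroxide, by 1.83. Gpx8, Gpx7 and Maoa were higher than in quiescent cells with PRI-724 as well, by 1.52, 1.31 and 2.21. These were 2 of the 18 handling genes and 1 of the 9 other enzymes, where 1.28% of all tested genes rose.

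**Figure D3:**
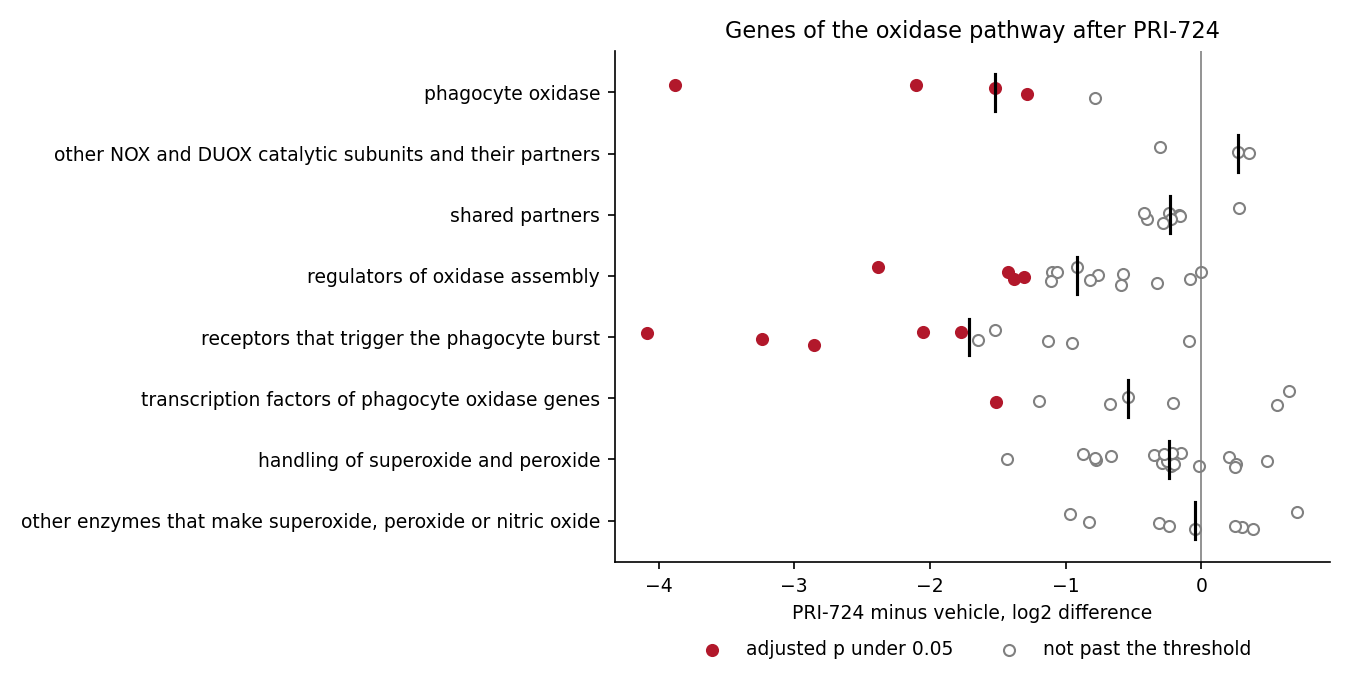
Difference of PRI-724 minus vehicle (log2, mean of the young and old pairs) for each tested gene of the oxidase lists, 1 point per gene, with filled points for limma adjusted p under 0.05 and a bar at the median of the list. The phagocyte oxidase and its receptors lie furthest to the left, with medians of −1.52 and −1.71. The 3 tested genes of the other NOX and DUOX enzymes lie on both sides of 0, from −0.30 for Noxa1 to 0.35 for Duoxa1. All genes of that list are below the filter on the young vehicle array, with a highest signal of 4.66, so a fall could hardly be seen there.

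Markers of macrophages and of sinusoidal endothelium moved with the phagocyte oxidase. Of 13 tested macrophage markers 10 fell in PRI-724 minus vehicle, against 1.93% of all tested genes, with list medians of −2.66 (young) and −2.28 (old). Their mean log2 signal was 8.08 and 8.89 on the quiescent arrays, 8.44 and 8.30 on the vehicle arrays, and 5.87 and 6.05 on the PRI-724 arrays. All 12 tested endothelial markers fell, with medians of −3.41 and −2.34. The part of these cells in the fall of the oxidase genes was not tested. The difference of Cybb minus the median macrophage marker was −1.57 (young) and −1.23 (old), and 2 of the 13 markers lay below Cybb in each pair. Rac2, Cyba, Ncf4 and Ncf1 lay above that median at both ages.

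The lists of other blood cells gave no call. In PRI-724 minus vehicle none of 6 tested neutrophil markers and none of 5 tested lymphocyte markers passed. Over all tested genes 2.2% passed in either direction, so such short lists would rarely hold a call at that share. In that comparison both lists also had 0 genes at an unadjusted p under 0.05 by limma. The neutrophil list stayed at a mean of 4.44 to 4.82 on all arrays and the lymphocyte list at 4.39 to 4.91. Both lie near the filter of 4.70, where a fall could hardly be seen. Of 11 tested stellate cell markers 1 fell, Lrat, which esterifies vitamin A (−1.69). Of 9 tested markers of activated stellate cells 1 fell, Myl9, a smooth muscle myosin light chain (−2.41). Over all tested genes 1.93% fell. At an unadjusted p under 0.05 by limma the counts were 4 of 11 and 6 of 9, against 2404 of all 15526 tested genes. The median of the activated list was −2.66 in the young pair, as large as that of the macrophage markers, and −0.52 in the old pair. Its mean log2 signal on the young PRI-724 array, the one that stands apart, was 6.75, against 6.49 on the young quiescent and 9.00 on the young vehicle array.

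**Figure D4:**
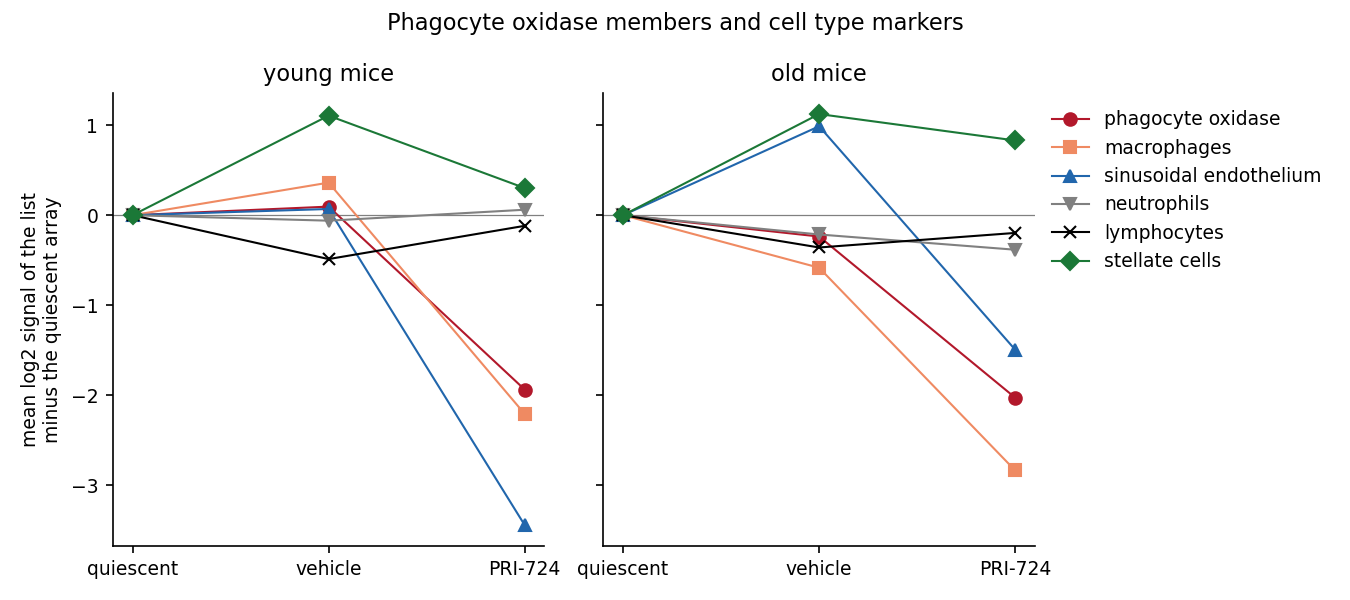
Mean log2 signal of each gene list minus that on the quiescent array of the same age, by state, for young mice on the left and old mice on the right, with 1 point per array. The phagocyte oxidase members (−1.94 young, −2.03 old with PRI-724) and the macrophage markers (−2.21 and −2.84) drop together with endothelial markers. Neutrophil markers stay near 0, but their mean signal lies near the filter on all arrays, where a fall could hardly be seen.

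Over the 6 arrays, the signals of Cybb and Ncf4 had a Pearson correlation of 0.99, Cybb and Rac2 0.96, Cybb and Cyba 0.90 and Cybb and Ncf1 0.78. Those of Cybb with Nox1 and Nox4 were −0.30 and −0.12. These are descriptions over arrays that share their states and ages, and the PRI-724 arrays stand apart from the rest for Cybb. Among 13814 other named genes, those most like Cybb were Cd53 (a leukocyte tetraspanin), C3ar1 (the receptor for complement C3a), Rgs1 (a regulator of G protein signalling), Smpdl3a and Cyth4, from 0.997 to 0.994. Those most like Nox4 were Rai1, Zfp319, Cd79a, Pbld2 and Rfx3, from 0.990 to 0.959, and those most like Nox1 were Psmd3, Gtpbp2, Taf9, Lrch3 and Arid5a, from 0.985 to 0.962. Nox1 varied by only 0.50 log2 units below the filter, so nothing is read from its list. The same holds for the list of Nox4, whose signal was low, from 4.40 to 5.51, and whose states overlapped fully.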

How the data were processed

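RNA from 6 pooled samples of mouse hepatic stellate cells, 1 array per group, was measured on Affymetrix arrays. The deposited values are log2 signals made by the authors with Affymetrix Expression Console and RMA, per the submitters' processing notes, which name no versions. RMA corrects background, normalizes and summarises each probe set.

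Of 41345 probe sets 23521 had 1 gene symbol, 1814 several and 16010 none, and the last 2 kinds were left out. A gene took its probe set with the highest mean. The 30% of genes with the lowest mean (log2 under 4.70) were not tested. The model, fitted with limma 3.58.1 (R 4.3.3), had terms for age and state and used moderated variances with an intensity trend (2 residual and 7.76 prior degrees of freedom), and the code was tested on simulated data. The number of arrays limits the precision.

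The members and lists were chosen with earlier results of these data known. All members are named; of each list, genes past the threshold or the 4 with the largest difference; and the 5 genes most correlated with Cybb, Nox1 and Nox4. Alternatives changed the filter, the normalization, the probe set rule, the age term and the arrays used.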

Additional observations from a re-analysis of the deposited data

Results flagged for a closer look

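For 7 differences between states, the young and the old pair of arrays went opposite ways, and the differences between the pairs were not tested. In activation, the young pair minus the old pair was 0.56 for Cybb, 0.80 for Cyba, −0.38 for Rac2 and −0.98 for Nox4. In PRI-724 minus vehicle it was 0.67 for Nox4. In PRI-724 minus quiescent it was −0.50 for Nox1 and −0.31 for Nox4. None of these genes was called in the comparison named, and each pair is 1 array against 1.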

How the results depend on the processing

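With 1 array in each group and 2 residual degrees of freedom, the fits show differences that are large against the moderated error, most of which is shared between genes. The drop of Cybb and Rac2 against vehicle passed in every alternative except without the young PRI-724 array. The count of members called in PRI-724 minus vehicle was 4, and 2 without age in the model, with cyclic loess and with quantile normalization; Cyba and Ncf4 were the ones lost. Leaving out 1 array gave 0 to 4 there and 0 to 5 in PRI-724 minus quiescent, where 4 were called. The lowest came without the young PRI-724 array; without the old one, 2 and 1 were called, and on omitting young vehicle 2 and 5. The causes were not tested. The phagocyte median minus the Nox1 difference was −1.24 with cyclic loess and −1.46 with quantile normalization, with Nox1 below the filter throughout. That against Nox4 was −1.43 with either normalization. Leaving out a vehicle or PRI-724 array left only 1 age pair for these gaps. The ranges of −2.04 to −1.59 (Nox1) and −2.46 to −1.17 (Nox4) therefore repeat the pair values.

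Signs turned only where no call was made. Activation of Cybb was −0.17 with cyclic loess and −0.094 with quantile normalization, and old minus young of Ncf1 was −0.011 with cyclic loess. On leaving out 1 array, activation ran from −0.29 to 0.35 for Cybb, −0.10 to 0.64 for Cyba, −0.92 to 0.14 for Ncf1, −0.36 to 0.25 for Rac2 and −0.63 to 0.19 for Nox4. Old minus young ran from −0.25 to 0.51 for Ncf1 and −0.38 to 0.048 for Rac2. For Nox4, PRI-724 minus vehicle ran from −0.14 to 0.68 and PRI-724 minus quiescent from −0.27 to 0.37. No paired analysis by replicate number was possible because each group holds 1 array; the pairing by age is a term of the model.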
